A study of Mus musculus with 37 samples.

Results

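The comparison described here set sorted mouse mammary cells with the D542G form of Esr1 against cells with wild-type (WT) Esr1, both taken from mice under estradiol (E2). It rests on 6 of the 37 libraries of the series, 3 titled D542G with E2 and 3 titled WT with E2, chosen by those titles. All mice were raised to 8 weeks, ovariectomized and implanted with a pellet for 8 days, which held E2 in both groups. The cells were mature luminal cells isolated by flow cytometry. Some results are set beside 9 further libraries handled alike, 3 each of WT with a placebo pellet, D542G with a placebo pellet and Y541S with E2. The design text speaks of biological replicates. No label says whether a library came from a single animal or a pool, or gives the zygosity of the mutation. Unless another fit is named, the p-values rest on a spread estimated from all 37 libraries together. They reflect only how libraries varied, which may be technical in part.

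Esr1 encodes estrogen receptor alpha, a nuclear receptor that binds estradiol, pairs with itself and activates or represses genes through estrogen response elements and partner factors such as FOXA1 and GATA3. In the mammary gland it marks the hormone-sensing luminal cells, which also carry the progesterone and prolactin receptors and pass hormonal signals to their neighbours through secreted factors. A separate luminal lineage of progenitor and alveolar cells is marked by Kit, Elf5 and milk genes. The D542G and Y541S positions lie in the ligand-binding domain, in the part whose folding decides whether coactivators bind, and the matching human residues are mutated in breast cancers that resist endocrine therapy.

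The mutated positions are adjacent codons, shown here to place the alleles that the groups differ by. On the reference transcript (ENSMUST00000067086.13, 599 codons) the codons of Y541S and D542G fall at chr10:5001244-5001249 of GRCm38, plus strand, in exon 9 of 9. The stretch below covers codons 530 to 555 (chr10:5001211-5001288), with those 2 codons in capitals. It is reference sequence, and gene counts do not show which allele was read.
Esr1: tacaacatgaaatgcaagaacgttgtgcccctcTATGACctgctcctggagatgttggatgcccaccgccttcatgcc

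Levels are given as CPM, a gene's count scaled to a common library size, which was the total of the tested genes adjusted between libraries. Differences are log2 fold changes of D542G over WT ± SE. Esr1 itself (ENSMUSG00000019768, chromosome 10, 4611593 to 5005614) was at 23.7, 9.73 and 39.4 CPM in WT with E2 and at 89.6, 101 and 72.1 CPM in D542G with E2. All 3 D542G libraries were above all 3 WT libraries. The difference was 1.85 ± 0.34, or 3.6-fold (adjusted p = 1.51e-04, edgeR's quasi-likelihood test with Benjamini-Hochberg adjustment over all genes tested, as for every adjusted p below). Without hormone the order was the reverse, with 688 ± 130 CPM (SD, n = 3) in WT and 171 ± 25.9 CPM in D542G, a difference of -2.01 (adjusted p = 9.63e-04). The mutation's effect on Esr1 thus differed between E2 and placebo by 3.86 ± 0.49 (adjusted p = 1.80e-05, interaction term).

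Of 18426 genes tested, 5368 (29.1%) were called at an adjusted p under 0.05, 2832 (15.4%) higher and 2536 (13.8%) lower in D542G. The call was joined by a change of at least 2-fold for 3188 genes (17.3%). The libraries of the groups did not overlap for 6375 genes (34.6% of all tested). Of these, 4720 were also called, which is 25.6% of all tested. The median log2 fold change over all genes tested was 0.00. The shares called higher and lower are those to set beside each count of list members below. A fit on the 6 libraries alone called 2561 genes, of which 2504 were among the calls of the fit on all 37 libraries. The 6 libraries held 33.46 to 47.82 M counts, and their 10 most counted genes took 5.55% to 10.29% of them. Libraries of WT with E2 differed more among themselves (chi-square statistic across genes, over its degrees of freedom, of 179.8 to 283.3) than those of D542G with E2 (52.3 to 97.4). WT library 1 and D542G library 3 stood apart from their groups in several marker sums given below, so several values that rest on them are also given without them.

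**Figure D1:**
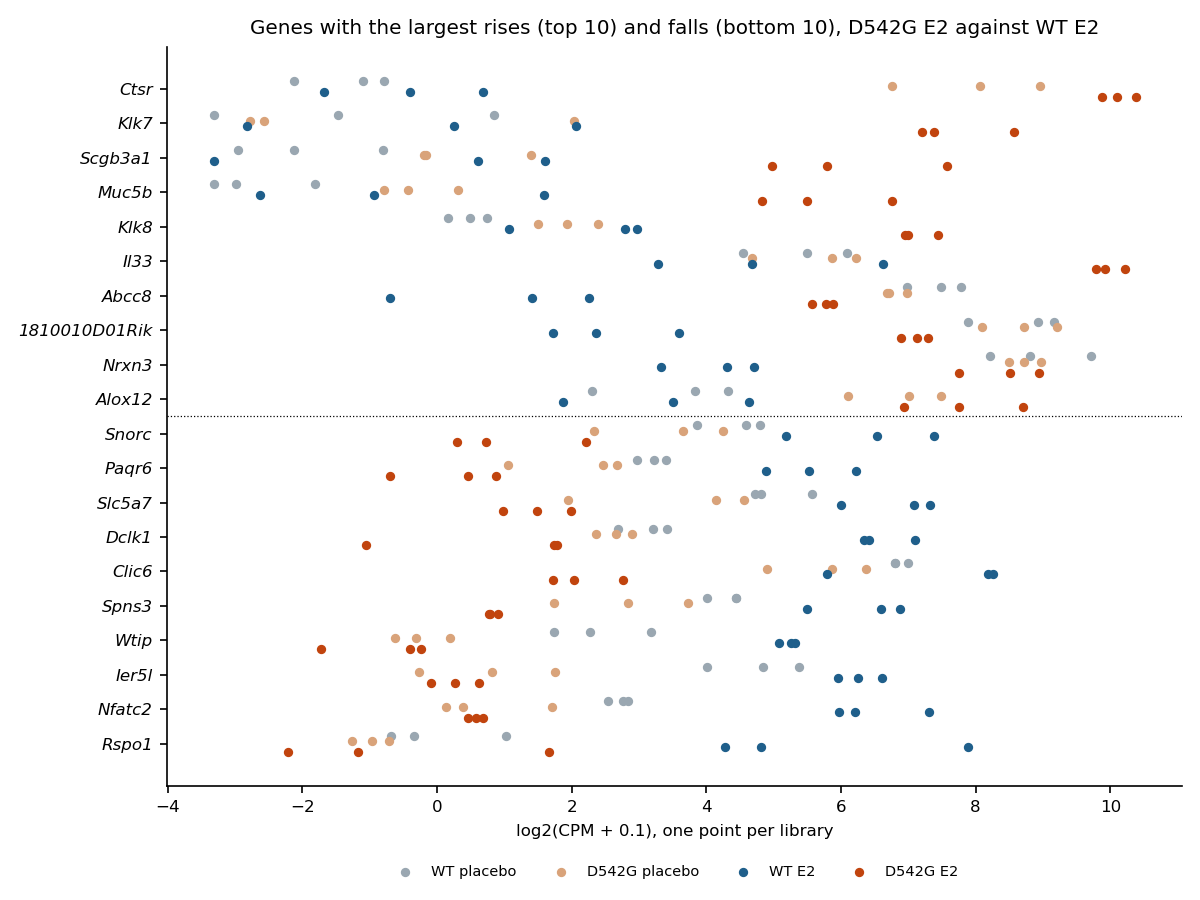
Levels of the 10 genes with the largest rise (upper rows) and the 10 with the largest fall (lower rows) in D542G with E2, as log2(CPM + 0.1) on the horizontal axis, 1 point per library and 3 libraries per group, coloured by group. For every gene shown the D542G libraries with E2 lie on 1 side of all WT libraries with E2. For Nrxn3, Abcc8 and 1810010D01Rik the D542G libraries with E2 lie nearer to the placebo libraries than the WT libraries with E2 do.

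Among called genes whose groups did not overlap and whose mean log2 CPM was at least 2, the largest fitted rise was that of Ctsr, a cathepsin-type protease gene of a cluster otherwise known from placenta (chromosome 13, 61159204 to 61164256). It was at 0.658, 0.212 and 1.5 CPM in WT and at 1096, 1333 and 939 CPM in D542G, 10.43 ± 1.51 on the log2 scale (adjusted p = 7.12e-06). WT libraries were close to 0, and the groups were far apart. Its neighbour Ctsj was at a mean of 0.0553 ± 0.0611 CPM in WT and 68.3 ± 8.79 CPM in D542G (10.37 ± 1.60). Cts6 had 0 counts in WT and 5744 in D542G, at least 2296-fold higher against a floor of 3 counts over the WT libraries, and Ctsq had 0 and 213 counts, at least 85.1-fold higher. The other 4 cathepsins of the list of 8 did not pass the filter on low counts. The genes are close copies of each other, so reads may be split between them. The 3 with promoters in the RefSeq table (GRCm38.p6, minus strand) are shown because they moved together. Capitals mark the longest run of bases shared by all 3, which is 14 bases long and stands in 4 of the 27025 promoter windows of the table. The stretches lie upstream of the gene's span, at chr13:61164257-61164438, chr13:61005960-61006175 and chr13:61203411-61203642.
Ctsr: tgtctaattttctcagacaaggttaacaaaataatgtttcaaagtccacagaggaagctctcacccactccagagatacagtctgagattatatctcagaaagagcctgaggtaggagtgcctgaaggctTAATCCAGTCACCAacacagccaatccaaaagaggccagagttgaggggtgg
Ctsj: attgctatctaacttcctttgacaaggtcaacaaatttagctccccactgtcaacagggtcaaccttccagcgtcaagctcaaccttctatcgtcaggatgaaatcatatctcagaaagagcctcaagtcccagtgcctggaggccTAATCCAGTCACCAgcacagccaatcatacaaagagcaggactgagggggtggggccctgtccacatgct
Cts6: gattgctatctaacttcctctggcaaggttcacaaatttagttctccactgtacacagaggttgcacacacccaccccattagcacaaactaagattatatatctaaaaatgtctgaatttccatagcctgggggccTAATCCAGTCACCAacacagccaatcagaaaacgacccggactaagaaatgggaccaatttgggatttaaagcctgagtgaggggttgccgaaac

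The other large rises included several genes of secreted and membrane proteins. Il33, a cytokine stored in the nucleus and released on damage, was at 9.6, 25.4 and 98.5 CPM in WT and 968, 1197 and 888 CPM in D542G (4.51 ± 0.73, or 22.9-fold, adjusted p = 2.59e-05). Its lowest D542G library was well above its highest WT library. The kallikrein-related serine proteases Klk7 and Klk8 rose from 1.73 ± 2.09 to 232 ± 130 CPM (7.06 ± 1.53) and from 5.53 ± 3.1 to 141 ± 28.6 CPM (4.68 ± 0.50). Scgb3a1, a small secreted secretoglobin, rose from 1.45 ± 1.47 to 92.7 ± 86.1 CPM, with D542G library 3 at 191 CPM and the others at 31.5 and 55.3 (5.98, and 4.89 without library 3). Muc5b, a gel-forming mucin, rose from 1.13 ± 1.55 to 60.3 ± 42 CPM, again highest in D542G library 3. Without WT library 3, the highest of its group, Muc5b, Klk7 and Il33 stood at 8.02, 8.77 and 5.87. Alox12, a lipoxygenase that oxidises arachidonic acid, rose from 13.2 ± 10.6 to 252 ± 150 CPM (4.26 ± 0.74). Abcc8, the regulatory subunit of an ATP-sensitive potassium channel, rose from 2.58 ± 2.08 to 53.6 ± 5.97 CPM, and the cell adhesion gene Nrxn3 from 18.6 ± 8.12 to 358 ± 139 CPM. 1810010D01Rik also rose (4.35 ± 0.97), but its span lies wholly within other genes, so its reads cannot be assigned with certainty.

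Among the falls, Rspo1, an R-spondin that amplifies Wnt signals, was at 236, 28 and 19.3 CPM in WT and at 3.08, 0.345 and 0.115 CPM in D542G (-6.26 ± 1.28, adjusted p = 4.35e-04). WT library 1 was much the highest, but the groups did not overlap. Without it the value was -4.26 (adjusted p = 0.00587), and without D542G library 1 it was -8.71. Nfatc2, a calcium-regulated transcription factor, fell from 98.6 ± 52.9 to 1.39 ± 0.11 CPM, a 70.8-fold difference (adjusted p = 5.22e-07). Wtip, a LIM-domain adaptor, was even within WT, at 37.2 ± 3.1 CPM, and was at 0.534 ± 0.291 CPM in D542G. Ier5l fell from 78.2 ± 17.8 to 1.13 ± 0.3 CPM. Spns3, of a lipid transporter family, fell from 86.2 ± 37.1 to 1.67 ± 0.0977 CPM, and Clic6, of the intracellular chloride channel family, from 217 ± 141 to 4.63 ± 1.84 CPM. The kinase gene Dclk1, the choline transporter Slc5a7, the progestin receptor relative Paqr6 and Snorc fell by 5.35 to 5.43 on the log2 scale. All 10 of these falls were called in each of the 12 alternative fits, and so were the 10 largest rises.

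Markers of hormone-sensing luminal identity were mostly higher in D542G. Of 22 markers tested, 14 rose, 3 fell and 5 did not pass, with a median log2 fold change of 1.16 against 0.00 over all genes. In bulk RNA, more cells of a type and more RNA per cell cannot be told apart, here and below. Pgr, the progesterone receptor, was at 57.1, 49.8 and 94.1 CPM in WT and at 530, 427 and 392 CPM in D542G (2.75 ± 0.39, 6.71-fold, adjusted p = 4.93e-06). Prlr, the prolactin receptor, was at 132, 89.6 and 194 CPM in WT and at 1205, 981 and 979 CPM in D542G (2.93 ± 0.35, 7.61-fold, adjusted p = 6.18e-07). For both receptors the lowest D542G library was at least several times the highest WT library. Foxa1, which opens chromatin for the estrogen receptor, rose 3.88-fold to 235 ± 88.1 CPM, and Gata3, a luminal fate factor, rose 2.31-fold to 348 ± 22.3 CPM. Cited1, an estrogen receptor coactivator, rose 4.13-fold to 145 ± 51.4 CPM. Prom1 rose from 186 ± 147 to 1476 ± 123 CPM, Ly6a from 297 ± 117 to 1713 ± 316 CPM and the luminal transcription factor Tbx3 from 43.5 ± 4.05 to 114 ± 26.4 CPM. The 3 that fell were Cd14 (-3.38), which is also on the progenitor list, and the junction and adhesion genes Cldn3 (-0.74) and Epcam (-0.58). Without WT library 1 the list held 12 rises and 3 falls.

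**Figure D2:**
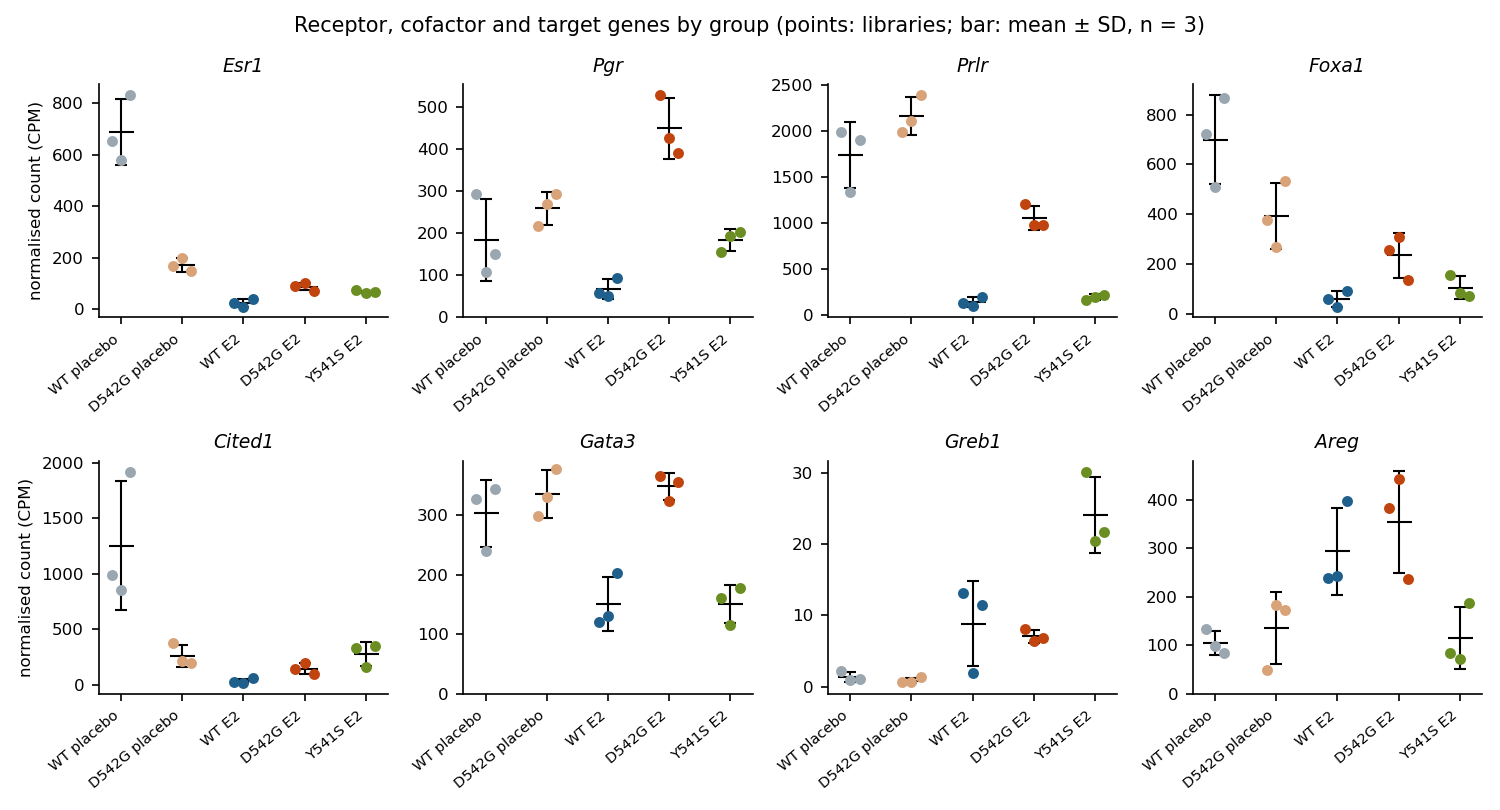
Levels (CPM, vertical axes) of 8 receptor, cofactor and target genes in 5 groups, with a point per library and a bar at the mean ± SD (n = 3). Esr1, Pgr, Prlr, Foxa1, Cited1 and Gata3 are higher in D542G with E2 than in WT with E2 in every library, whereas the libraries of the 2 groups overlap for Greb1 and Areg.

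The opposite held for markers of luminal progenitor and alveolar cells: of 19 tested, 16 fell, 1 rose and 2 did not pass, with a median of -4.07. Kit, a receptor tyrosine kinase, was at 661, 886 and 1160 CPM in WT and at 49.2, 29.9 and 31.7 CPM in D542G (-4.61 ± 0.54, a 24.4-fold difference, adjusted p = 3.90e-07). Aldh1a3, a retinaldehyde dehydrogenase, was at 985, 1560 and 2191 CPM in WT and at 41.8, 25.1 and 94.7 CPM in D542G (-4.87 ± 0.58). Both genes were separated between the groups by about an order of magnitude. Lcn2, an iron-binding defence protein, fell 32.6-fold to 88.8 ± 6.97 CPM, Sox10 from 231 ± 41.8 to 8.05 ± 3.81 CPM and the ETS factor Ehf from 261 ± 122 to 67.3 ± 11 CPM. Elf5, which specifies the alveolar lineage, was at 49.9, 79.1 and 47 CPM in WT and at 19.2, 25.3 and 37.5 CPM in D542G. It did not pass (-1.10 ± 0.44, adjusted p = 0.0607), though the groups did not overlap, and it passed by DESeq2 (-1.11, adjusted p = 0.0367) and without D542G library 3 (-1.40, adjusted p = 0.0443). Folr1, the folate receptor gene, was the member that rose (1.13 ± 0.36), a call lost without WT library 1 or 3 or D542G library 2 or 3, and Itga2 was at 51.8 ± 18.7 and 53.8 ± 13.7 CPM. Trf (-4.50) lies almost wholly within other genes, and its reads are uncertain.

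Milk genes followed the same direction, 9 of 17 lower and 0 higher, with a median of -2.43. Mfge8 and Ltf, given below, are also on the progenitor list, so the lists are not separate evidence. Btn1a1, a butyrophilin of the milk fat globule, fell from 232 ± 151 to 12.3 ± 13.1 CPM, Plin2, which coats lipid droplets, from 621 ± 202 to 116 ± 18.6 CPM, and Xdh, the xanthine dehydrogenase of the globule membrane, from 292 ± 96.4 to 36.3 ± 6.32 CPM. Mfge8 fell from 7129 ± 2751 to 1320 ± 263 CPM, and the iron-binding Ltf was at 1366, 13470 and 11678 CPM in WT against 200, 185 and 1197 CPM in D542G (-4.07 ± 0.95). WT library 1 was the lowest of its group for Ltf and D542G library 3 the highest of its own, and they came close to each other. The caseins Csn2 (-1.49 ± 1.70) and Csn1s2a (-1.45 ± 1.40) were low and uneven in both groups and did not pass. Csn2 turned to 1.04 without WT library 1 and went to -3.50 without D542G library 1, and Csn1s2a went to -3.37 without the latter; no value of either passed.

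The progenitor markers summed to 16776, 50520 and 40342 CPM in WT with E2 and to 2647, 2275 and 4233 CPM in D542G with E2, against 4356 to 5287 CPM in WT with placebo and 2071 to 3919 CPM in D542G with placebo. In Y541S with E2 the sum was 9008 to 14658 CPM, above the placebo groups and below each WT library with E2. The WT libraries with E2, labelled as mature luminal cells, thus held the highest sums of these 5 groups. The part of the progenitor transcripts in the other differences was not tested.

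**Figure D3:**
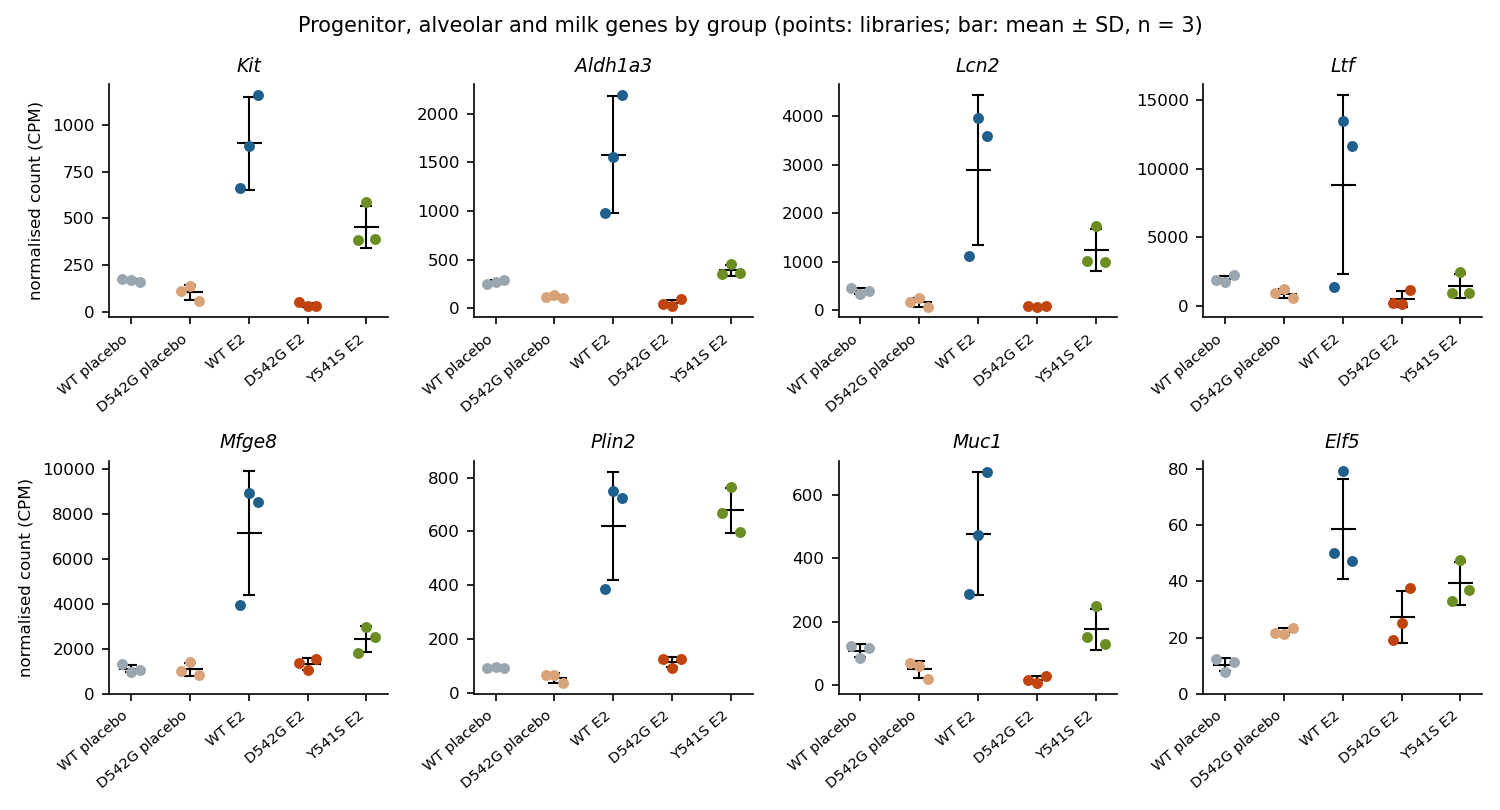
Levels (CPM, vertical axes) of 8 progenitor, alveolar and milk genes in 5 groups, with a point per library and a bar at the mean ± SD (n = 3). WT with E2 stands highest for Kit, Aldh1a3, Lcn2 and Muc1 in means, and D542G with E2 lies near or below the placebo groups for Kit, Aldh1a3, Lcn2, Ltf and Muc1.

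Membrane mucins and keratins parted. Muc1, a mucin of the apical surface, fell from 477 ± 193 to 17.9 ± 11.1 CPM (-4.73 ± 0.56), Muc20 from 179 ± 35 to 8.91 ± 5.33 CPM, and the tight junction gene Cldn1 from 299 ± 18.2 to 8.43 ± 5.25 CPM. The simple keratins Krt7, Krt18 and Krt19, filament proteins of luminal cells, rose by 1.37, 0.63 and 1.11, with Krt7 at 1510 ± 508 and 3901 ± 280 CPM. Krt8 (0.56 ± 0.21, adjusted p = 0.0404) lost its call when any of WT library 1, WT library 2, D542G library 1 or D542G library 2 was left out (adjusted p 0.0824 to 0.162). In all, 5 of 14 tested members of the list rose and 6 fell, with 3 rises without WT library 1 or D542G library 1.

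Classical targets of the estrogen receptor did not move as a block. Of 27 tested, 4 rose, 9 fell and 14 did not pass, with a median of -0.33. The rises are near the 15.4% of all genes called higher, while 13.8% of all genes were called lower. Greb1, a coactivator gene bound directly by the receptor, was at 13.1, 1.97 and 11.5 CPM in WT and at 8.05, 6.35 and 6.79 CPM in D542G (-0.33 ± 0.49, adjusted p = 0.67). The D542G libraries lay within the WT range, and the sign of the difference turned without WT library 1. Areg, the epidermal growth factor ligand that mediates ductal growth under estrogen, was at 240, 244 and 398 CPM in WT and 383, 443 and 238 CPM in D542G (0.27 ± 0.46, adjusted p = 0.713), again with overlap. Besides Pgr, the rises were Xbp1 (1.10), the secreted glycoprotein Stc2 (1.41) and the chemokine Cxcl12 (1.34). The falls included Tfap2c, an AP-2 factor, from 136 ± 27 to 8.07 ± 6.44 CPM, the potassium channel Kcnk5 from 507 ± 139 to 33.8 ± 6.42 CPM, the survival gene Bcl2 (-3.43), the receptor gene Igf1r (-2.78) and Myc (-1.10 ± 0.30, adjusted p = 0.0061).

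Cofactors of the receptor held 7 rises and 4 falls among 20, against 15.4% and 13.8% of all genes. Beside Foxa1, Gata3 and Cited1, the corepressor Nrip1 rose from 485 ± 242 to 1087 ± 182 CPM, the arginine methyltransferase Carm1 from 52 ± 15.1 to 98.6 ± 9.82 CPM (0.92 ± 0.18), the histone methyltransferase Kmt2d by 1.04 and the corepressor Ncor1 by 0.55. The coactivator Ncoa1 fell from 58.7 ± 18.5 to 28 ± 4.56 CPM, and Tfap2c, given above, was another of the falls. Without WT library 3 or D542G library 3 there were 2 falls.

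Among 27 nuclear receptors tested, 8 rose and 7 fell, or 4 fell without D542G library 2. Over all genes 15.4% rose and 13.8% fell. Esrrb, an orphan receptor related to the estrogen receptors, rose from 4.35 ± 1.14 to 29 ± 6.86 CPM (2.74 ± 0.49, adjusted p = 9.50e-05), and its relative Esrra by 1.07. Vdr, the vitamin D receptor, fell from 179 ± 26.1 to 43.9 ± 8.53 CPM (-2.02 ± 0.31). Nr3c1, the glucocorticoid receptor, fell from 62.3 ± 14.2 to 31.9 ± 8.69 CPM, and the thyroid hormone receptor Thrb by 2.13 on the log2 scale.

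Of 18 progesterone and shared steroid targets, 1 rose, 4 fell and 13 did not pass, with a median of -0.17. Over all genes 15.4% rose and 13.8% fell. Fkbp5, a chaperone of steroid receptors, was at 53.5, 41.6 and 34 CPM in WT and at 12.3, 11.3 and 10.4 CPM in D542G (-1.92 ± 0.48, adjusted p = 0.00327), with no overlap. Tnfsf11, which encodes the paracrine signal RANKL, was at 23.4, 0.272 and 0.112 CPM in WT and at 0.144, 0.104 and 0.0576 CPM in D542G. Its call (-6.22 ± 1.52) rested on WT library 1, and without it the value was -0.80 (adjusted p = 0.794). Wnt4, another progesterone target, was at 20.3 ± 15.1 and 19.5 ± 9.43 CPM, and Calca at 12.6 ± 2.38 and 13.3 ± 5.54 CPM. Tph1, the first enzyme of serotonin synthesis, rose from 826 ± 456 to 3326 ± 861 CPM (2.01 ± 0.64). That list had 0 rises without WT library 2 or D542G library 2 and 2 without WT library 3, and its median was -0.53 and -0.65 without WT libraries 2 and 3.

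Of 20 genes of signals that luminal cells send to their neighbours, 3 were higher (1 without WT library 2 or D542G library 2) and 5 lower, against 15.4% and 13.8% of all genes. Wnt5a was at 34.5, 189 and 275 CPM in WT and 889, 1117 and 697 CPM in D542G (2.44 ± 0.46, adjusted p = 1.71e-04; 2.41, adjusted p = 0.0507, in the fit on the 6 libraries). Wnt5b went the other way, at 432, 639 and 554 CPM in WT and 22.4, 17 and 20.3 CPM in D542G (-4.77 ± 0.57, 27.2-fold, adjusted p = 4.62e-07). Neither pair of groups overlapped. Penk, the precursor of enkephalin peptides, was at 555 ± 168 and 1130 ± 357 CPM and did not pass (1.03 ± 0.86, adjusted p = 0.406). Of 21 genes of Wnt signalling, 9 fell and 4 rose, with a median of -0.94. There were 5 falls without D542G library 3, 2 rises without WT library 2, and 1 rise in the fit on the 6 libraries. The falls included the secreted inhibitor Sfrp1, from 4.68 ± 1.21 to 0.0967 ± 0.0851 CPM, the receptors Fzd1 and Fzd7 and the R-spondin receptor Lgr4. The receptor Fzd4 rose from 5.31 ± 4.44 to 38.6 ± 7.73 CPM. Axin2, the feedback gene often read as a measure of the pathway, had a difference of 0.01 and was not called.

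Receptors of the EGF family moved in opposite directions. Egfr was at 82.9, 116 and 108 CPM in WT and at 5.93, 4.83 and 14.5 CPM in D542G (-3.60 ± 0.68, 12.1-fold, adjusted p = 1.70e-04), whereas Erbb2 was at 199, 88.4 and 167 CPM in WT and 477, 388 and 366 CPM in D542G (1.44 ± 0.25, adjusted p = 7.00e-05). Each of these differences held in every library. Erbb3 rose by 0.96 ± 0.21 and Erbb4 fell from 22.8 ± 3 to 1.27 ± 0.97 CPM. The ligand gene Hbegf fell from 368 ± 106 to 35.1 ± 2.48 CPM and Nrg1 from 12.1 ± 9.19 to 0.855 ± 0.486 CPM. Ereg had 133 counts in WT and 0 in D542G, at least 37-fold lower. In the list of 12, 5 fell and 2 rose, against 13.8% and 15.4% of all genes.

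In the prolactin pathway list 5 of 10 genes rose and 0 fell, against 15.4% and 13.8% of all genes. Without D542G library 3, 1 fell. Prlr and Gata3, which are also on the hormone-sensing list, were among the rises. Another was the kinase Jak2, from 109 ± 40.9 to 282 ± 72.2 CPM. The feedback inhibitors Socs2 and Socs3 rose from 29.3 ± 6.87 to 105 ± 24.6 CPM and from 159 ± 25.3 to 420 ± 108 CPM. Stat5a, the transcription factor that the pathway activates, was at 184 ± 33 and 208 ± 33.7 CPM and did not pass. Among Notch genes, the target Heyl fell from 29.1 ± 3.73 to 1.57 ± 0.271 CPM, and the ligand Jag1 rose from 17.2 ± 12.9 to 85.6 ± 1.8 CPM. In that list of 14, 3 rose and 2 fell, or 1 without WT library 2. These counts are near the 15.4% and 13.8% over all genes.

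**Figure D4:**
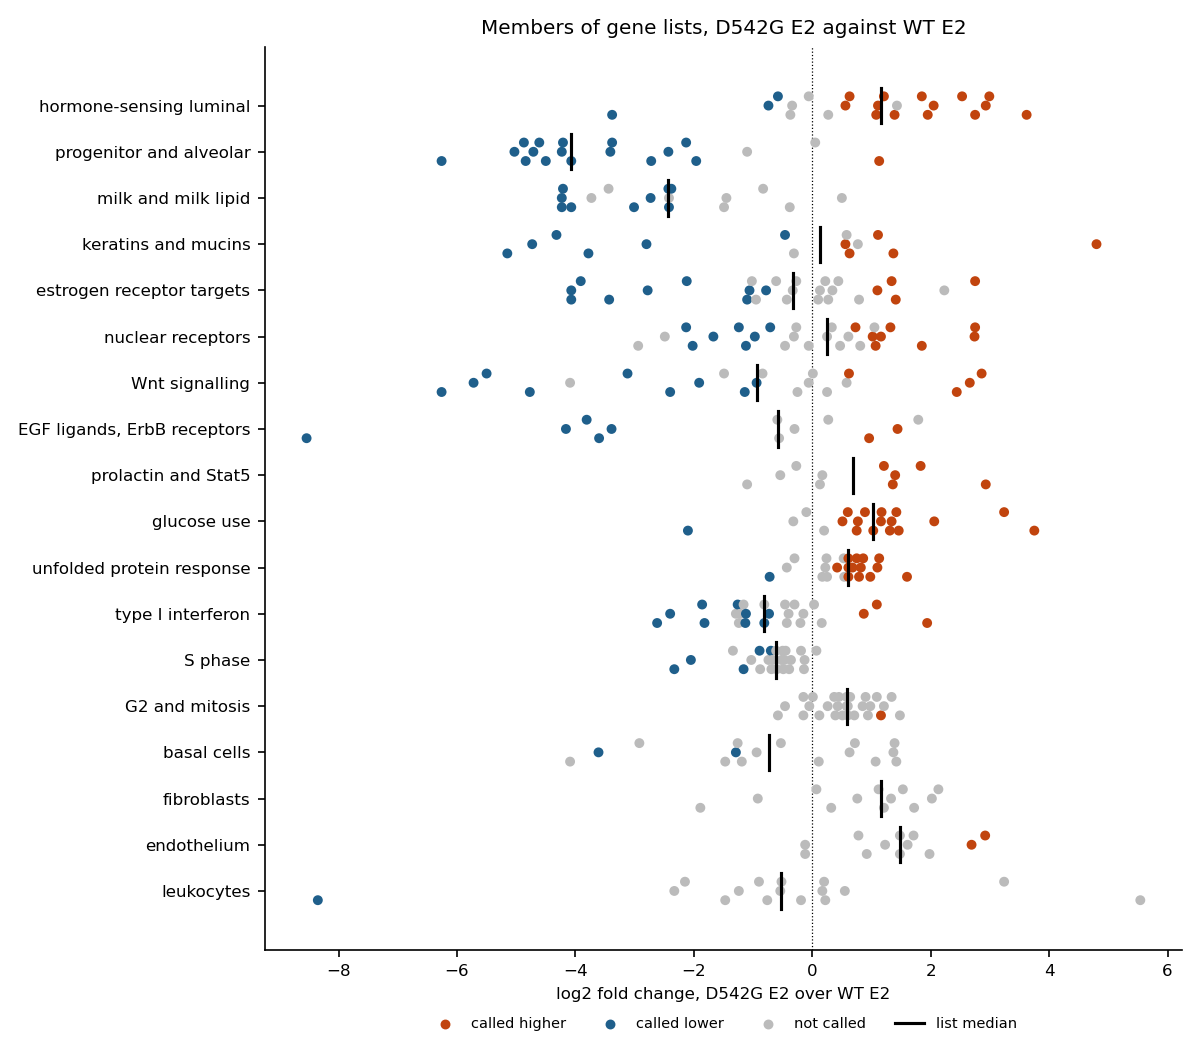
Log2 fold change of D542G with E2 over WT with E2 (horizontal axis) for each tested member of 18 gene lists (rows), with a point per gene coloured by its call and a bar at the list's median. Glucose use and hormone-sensing genes lie mostly to the right, progenitor and milk genes mostly to the left, and estrogen receptor targets, nuclear receptors and Wnt genes on both sides. Genes with 0 counts in a group, such as Ereg and Cd4, are plotted at fitted values that are no bound on their change.

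Genes of glucose use were higher, 15 of 19 called up and 1 down, with a median of 1.03. Slc16a3, a lactate exporter, was at 6.97, 14.3 and 17.1 CPM in WT and 107, 155 and 101 CPM in D542G (3.24 ± 0.54, adjusted p = 4.04e-05). The glucose transporter Slc2a3 was at 180, 20.4 and 29.2 CPM in WT and 1254, 831 and 1001 CPM in D542G (3.75 ± 0.86). The D542G libraries exceeded every WT library for both, though WT library 1 was far above its group for Slc2a3. Enzymes rose less: hexokinase Hk2 by 2.06, aldolase Aldoa by 1.42, pyruvate kinase Pkm by 1.34, triosephosphate isomerase Tpi1 by 1.31 and lactate dehydrogenase Ldha by 0.75. Gapdh (1.16) and Pgam1 (1.46) have many processed copies in the genome, and their reads may be split. The transporter Slc2a1 was at 302 ± 131 and 241 ± 27.7 CPM and did not pass, and the aldolase Aldoc fell from 443 ± 75.4 to 103 ± 1.69 CPM. Without WT library 1 the list held 14 rises and 1 fall.

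Genes of protein folding in the endoplasmic reticulum rose by smaller amounts, 13 of 22 up and 1 down, with a median of 0.61. The stress sensor Ern1 rose from 42.5 ± 12 to 129 ± 15.7 CPM (1.60 ± 0.26, adjusted p = 2.29e-05), and its target Xbp1 from 677 ± 211 to 1453 ± 267 CPM. Dnajc3, a cochaperone, rose by 0.86 ± 0.16. Atf4 fell by 0.72 on the log2 scale, a call lost without WT library 2 or any D542G library, and the chaperone Hspa5 (-0.43) and Ddit3 (-0.30) did not pass.

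Genes of fatty acid synthesis were called in both directions. The desaturases Fads1 and Fads2, which make polyunsaturated fatty acids, both fell: Fads2 was at 315, 434 and 444 CPM in WT and 17.6, 8.01 and 25.7 CPM in D542G (-4.54 ± 0.44, 23.2-fold, adjusted p = 2.45e-08), and Fads1 went from 429 ± 65 to 23.6 ± 13.7 CPM. Scd1 fell from 349 ± 165 to 43.9 ± 20.5 CPM, while its paralog Scd2 rose from 58.1 ± 27.1 to 266 ± 101 CPM. The triglyceride enzymes Gpam and Dgat2 rose by 2.34 and 2.68. In all, 5 of 19 fatty acid genes rose and 4 fell, against 15.4% and 13.8% of all genes. Of 23 cholesterol genes, 4 rose, among them Ebp from 148 ± 37.1 to 267 ± 8.48 CPM and Fdft1, and 4 fell, among them Dhcr7 from 25.4 ± 4.37 to 7.77 ± 2.09 CPM. These cholesterol counts are near the shares over all genes. Either count was 2 when a single library was left out, WT library 1 for the rises and WT library 2 or D542G library 1 or 3 for the falls. Among genes of steroid metabolism, 1 of 10 rose, Hsd17b4 (0.64 ± 0.16), and 2 fell, or 1 without WT library 1. Over all genes 15.4% rose and 13.8% fell. Cyp1b1, which hydroxylates estradiol, fell from 75.9 ± 74.6 to 4.59 ± 5.86 CPM (-4.03), and lost its call without WT library 1 (-2.84, adjusted p = 0.062), while it was -5.91 without D542G library 1.

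Among chemokines and secreted defence genes, Wfdc2, a protease inhibitor, was at 570, 828 and 939 CPM in WT and 4458, 5359 and 5474 CPM in D542G (2.71 ± 0.39, 6.54-fold, adjusted p = 5.94e-06), with no overlap. The chemokine Cxcl15 rose from 704 ± 301 to 2860 ± 684 CPM and Cxcl5 from 123 ± 95.1 to 649 ± 78.2 CPM. Cxcl16 fell from 169 ± 39.1 to 36.5 ± 5.14 CPM, and the immunoglobulin transporter Pigr from 17.2 ± 6.33 to 2.28 ± 0.914 CPM. Slpi, a further protease inhibitor, was at 816 ± 423 and 2989 ± 837 CPM and did not pass (1.87 ± 0.74, adjusted p = 0.0552). Of 21 genes of this list, 4 rose and 4 fell, near the 15.4% and 13.8% over all genes, with 2 rises without WT library 1, WT library 2 or D542G library 2. H2-DMa, which loads peptides onto MHC class II, rose from 13.3 ± 1.12 to 61.2 ± 11.4 CPM and was the 1 call among 6 genes of that presentation list, with 1 fall added without D542G library 3.

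Interferon-response genes were lower for 9 of 25 and higher for 3, against 13.8% and 15.4% of all genes, with a median of -0.81. Their sums overlapped, at 693, 2042 and 1403 CPM in WT and 852 to 984 CPM in D542G. Rtp4 was at 54.5, 290 and 159 CPM in WT and 32, 29.2 and 34 CPM in D542G (-2.40 ± 0.40), and Oasl2 fell from 75.3 ± 29.4 to 31.5 ± 4.3 CPM. Irf7, the factor that amplifies the response, fell from 147 ± 102 to 40.5 ± 11.9 CPM (-1.86, and -1.18 without WT library 2). WT library 2 was the highest and WT library 1 the lowest for these genes. Without WT library 2 the list held 4 falls and a median of -0.42, and without WT library 1, WT library 3 or D542G library 2 it held 1 rise. The fit on the 6 libraries alone called 2 of the list lower and 0 higher. Of 21 immediate early and stress genes, 5 rose, with Klf2 from 32 ± 4.16 to 110 ± 37.2 CPM and the heat-shock gene Hspa1b from 229 ± 67.3 to 492 ± 24.3 CPM, and 2 fell, led by the AP-1 subunit Fosl1 from 347 ± 118 to 32.4 ± 1.42 CPM. There were 3 rises without WT library 3 or D542G library 3, and 1 fall without WT library 2 or 3 or D542G library 1 or 2. Over all genes 15.4% rose and 13.8% fell.

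Cell cycle genes were called at shares that differed by list. Mki67, a marker of cycling cells, was at 35.2, 5.83 and 18.4 CPM in WT and 27.5, 32.8 and 16.6 CPM in D542G (0.37 ± 1.08, adjusted p = 0.846), with overlapping groups. Of 28 genes of G2 and mitosis, 1 was called higher, the cytokinesis gene Anln (1.16 ± 0.43, adjusted p = 0.0447). Its call was lost without any of D542G libraries 1, 2 and 3 or WT libraries 1 and 2 (adjusted p 0.0532 to 0.206). Of 24 genes of S phase, 5 fell and 0 rose, where 13.8% of all genes fell and 15.4% rose, with a median of -0.61, including Pcna, the sliding clamp of replication, from 11.9 ± 1.69 to 6.39 ± 1.4 CPM, and the repair gene Ung from 2.91 ± 1.25 to 0.577 ± 0.103 CPM. The histone mRNA binding gene Slbp (-0.70) lost its call without WT library 1, WT library 2 or D542G library 3 (adjusted p 0.0536 to 0.0895). The S phase list held 2 falls without any of those 3 libraries in turn and 3 without D542G library 1, and its median was -0.29 without WT library 1 and -0.95 without D542G library 2. Of 14 genes of growth control 2 rose and 2 fell, near the shares over all genes, with 1 rise without WT library 1 or 2 or D542G library 1 or 2. Rb1, which restrains entry into S phase, fell from 69.7 ± 27.3 to 17.1 ± 2.84 CPM, the cyclin Ccnd3 rose by 0.41 ± 0.12, and Ccnd1 was at 327 ± 43.3 and 242 ± 55.4 CPM and did not pass.

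Among matrix and mesenchymal genes, 4 of 18 rose and 0 fell, against 15.4% and 13.8% of all genes. Without WT library 1 or 2 there were 2 rises, and without D542G library 3 there were 3 falls. Mmp14, a membrane-bound protease, rose from 230 ± 90.3 to 585 ± 24.7 CPM. Mmp9 had 1 count in WT and 189 in D542G, a ratio of 227 (95% counting interval 40.2 to 8998). Snai2 had 0 counts in WT and 52 in D542G, at least 20.8-fold higher, but D542G library 3 was also at 0 and the call was lost without D542G library 2 or without any of the WT libraries (adjusted p 0.0538 to 0.0627). Of the uroplakins, plaque proteins of urothelium, Upk2 rose from 16 ± 7 to 97.2 ± 24.3 CPM and Upk3a from 0.381 ± 0.329 to 18.5 ± 15.8 CPM (5.52, and 6.56 without WT library 1), 2 of 5 tested.

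Markers of other cell types were low next to luminal genes but not even between groups. Endothelial markers summed to 88.7, 66.7 and 102 CPM in WT and 195, 145 and 529 CPM in D542G, with 2 of 12 higher, Vwf from 12.6 ± 4.33 to 95.2 ± 16 CPM and Eng from 4.44 ± 1.5 to 28.7 ± 20 CPM. Those 2 of 12 are near the 15.4% of all genes called higher. The median of the endothelial list was 1.48, and -0.25 without D542G library 3. The defining markers Pecam1 (8.24 ± 4.85 and 27 ± 26.5 CPM) and Cdh5 (0.999 ± 0.127 and 3.95 ± 4.95 CPM) did not pass. Fibroblast markers summed to 110, 99.9 and 130 CPM in WT and 539, 264 and 381 CPM in D542G, of which Dcn gave 70.7, 55.4 and 103 against 459, 246 and 220 CPM, and 0 of 12 were called by edgeR on all 37 libraries or by DESeq2 (1 at an unadjusted p under 0.05). The edgeR fit on the 6 libraries called Dcn higher (1.98, adjusted p = 0.0112).

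Leukocyte markers summed to 164, 34.5 and 40 CPM in WT and 37.6, 14 and 127 CPM in D542G, with Ptprc, the pan-leukocyte marker, at 2.25 ± 2.93 and 1.21 ± 0.987 CPM. The 1 call among 16 was Cd4, with 145 counts in WT, nearly all in library 1, and 0 in D542G; it was lost without WT library 1 (adjusted p = 0.399) and without each D542G library. Basal markers summed to 355 to 431 CPM in WT and 162 to 278 CPM in D542G, with Krt5 at 1.67 ± 0.455 and 3.48 ± 3.52 CPM. Of 16 tested, 2 were lower, Oxtr (-3.61 ± 0.66) and Lamb3 (-1.29 ± 0.31), and 0 higher. The falls are near the 13.8% of all genes called lower, where 15.4% were called higher. Erythroid markers summed to 366, 386 and 263 CPM in WT and 35.4, 16.9 and 237 CPM in D542G; of 5 tested 0 were called by edgeR or DESeq2 (3 at an unadjusted p under 0.05). Without D542G library 3, 4 were called lower and the median went from -1.73 to -3.71, with Hbb-bs at -3.71 (adjusted p = 0.00751) in place of -1.88. Of 5 adipocyte markers tested, Plin1 was called on 2 and 77 counts (ratio 46.2, counting interval 12.4 to 388), a call lost without D542G library 3 or any WT library. Of 6 Schwann and nerve markers, Gfra3 had 1763 counts in WT and 1 in D542G, Mbp fell from 153 ± 42 to 67.8 ± 9.75 CPM and Ncmap rose by 2.14. Of 12 mitochondrial genes tested 0 were called by edgeR or DESeq2 (0 at an unadjusted p under 0.05), and their sum was 4938, 7271 and 3670 CPM in WT and 1473, 2876 and 7302 CPM in D542G. The part of these other cells in the results was not tested.

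Without hormone the same mutation was followed by fewer calls: 372 of 18426 genes (2.02%), 228 higher (1.24%) and 144 lower (0.782%) in D542G with placebo than in WT with placebo. These libraries are distinct from those under E2. Of the 372, 218 were called in the same direction under E2 (141 higher, 77 lower), which is 58.6% of the placebo calls and 4.06% of the E2 calls, and 25 in the opposite direction. Across the 18426 genes Pearson's r of the log2 fold changes was 0.22, as a description, since genes are not independent replicates. Ctsr (9.81), Ctsj (11.52), Cts6 (12.31 as fitted, from 0 counts in WT), Alox12 (3.27), Vwf (2.39), Cxcl15 (1.95), Tph1 (3.03), Esrrb (2.19) and Slc16a3 (2.49) were higher in D542G with placebo too. Wtip (-2.88) and Ier5l (-3.92) were lower there too.

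**Figure D5:**
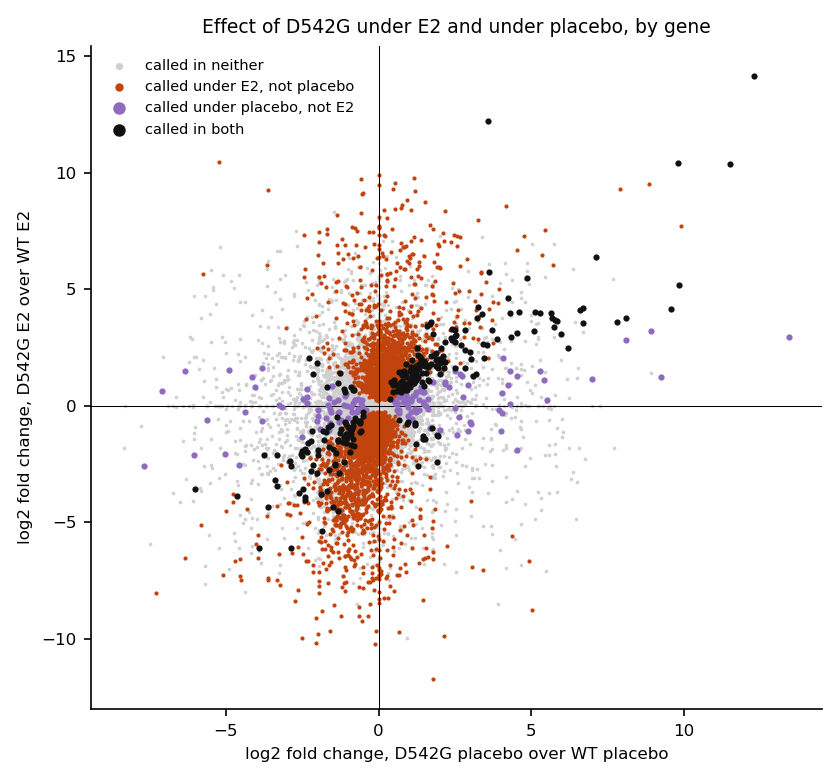
Log2 fold change of D542G over WT for each of 18426 genes, under placebo (horizontal axis) and under E2 (vertical axis), with a point per gene coloured by where it was called. The 243 genes called in both comparisons lie mostly at the upper right and lower left, and the 5125 genes called under E2 and not under placebo form a tall cloud about the vertical axis.

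The difference between the mutation's effect under E2 and that under placebo was itself called for 1701 genes (9.23%), 833 higher (4.52%) and 868 lower (4.71%). It shares its libraries with both comparisons, so the values are given side by side. Upk3a was at 613 ± 222 CPM in WT with placebo and at 0.381 ± 0.329 CPM in WT with E2, against 157 ± 54.4 and 18.5 ± 15.8 CPM in D542G, a difference of effects of 7.49 ± 1.57 (adjusted p = 0.00238). Adra2a, an adrenergic receptor, was at 99.6 ± 29.2 and 0.523 ± 0.527 CPM in WT with placebo and E2, and at 85.1 ± 41.3 and 30.8 ± 10.1 CPM in D542G (6.05 ± 1.13). Pparg, a regulator of lipid storage, was at 57.1 ± 20.1 and 3.01 ± 1.24 CPM in WT and at 3.47 ± 0.679 and 5.26 ± 4.4 CPM in D542G (4.85 ± 0.98). For Pparg and the nuclease Trex2 the mutation's effect was called under placebo (-4.04 and -3.82) and not under E2. Trex2 was called higher under E2 by DESeq2 (adjusted p = 0.0269), with the stricter filter of 1 CPM in 3 libraries (0.0438) and without WT library 3 (2.63, adjusted p = 0.00718).

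Interaction terms were also called for Pgr (2.25 ± 0.52), Prlr (2.61 ± 0.47), Foxa1 (2.78 ± 0.61) and Cited1 (4.32 ± 0.69). Pgr was at 184 ± 97.7 and 260 ± 39 CPM in WT and D542G with placebo, and Prlr at 1741 ± 359 and 2165 ± 204 CPM. The largest negative terms were those of Btbd11 (-5.34 ± 1.02), Dclk1 (-4.94 ± 0.88), the phospholipase Plb1 (-4.88 ± 0.64), the matrix gene Ltbp2 (-4.65 ± 0.73) and the integrin Itgb8 (-4.59 ± 0.98). Plb1 was at 17.1 ± 3.48 and 19.1 ± 7.53 CPM without hormone and at 216 ± 81.5 and 8.19 ± 0.969 CPM under E2, in WT and D542G. Of the 19 progenitor markers tested 11 had a lower effect under E2 than under placebo and 0 a higher, against 4.71% and 4.52% of all genes. Under placebo itself 0 were called, where 2.02% of all genes were. Their median there was -0.92, so the count of 0 does not show that placebo effects were absent. For the cathepsins Ctsr and Ctsj the term was 0.61 ± 1.83 (adjusted p = 0.91) and -1.15 ± 2.70 (adjusted p = 0.874); with errors of that size this does not show that the effects were alike.

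The Y541S mutation under E2 offers a comparison within the ligand-binding domain. Between D542G with E2 and Y541S with E2, 2878 genes (15.6%) were called, 1451 higher (7.87%) and 1427 lower (7.74%) in D542G. The D542G libraries are those of the comparison with WT, so values are given side by side. Prlr was at 189 ± 31.3 CPM in Y541S and Gata3 at 151 ± 31.6 CPM, both lower than in D542G (2.48 and 1.20, adjusted p = 1.58e-05 and 0.00188). Esr1 was at 66.7 ± 5.71 CPM in Y541S and was not called (0.39, adjusted p = 0.48). Greb1 was higher in Y541S, at 24.1 ± 5.34 CPM (-1.77, adjusted p = 0.0153). Ctsr (7.68) and Ctsj (10.29) were higher in D542G, with Ctsj at 0.0521 ± 0.0164 CPM in Y541S. Progenitor markers were lower in D542G for 13 of 19 and higher for 1, with Kit at 453 ± 114 CPM in Y541S (-3.62, adjusted p = 1.78e-05).

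The genes lowest in D542G against Y541S included the caseins Csn2, at 544 ± 444 CPM in Y541S (-8.15), and Csn1s2a (-7.95), the keratin Krt15, at 7880 ± 2288 CPM (-6.59), the collagen Col9a1 (-7.06) and the peptide gene Calcb (-6.15). Interferon-response genes were lower in D542G for 22 of 25, with a median of -3.07, and Oasl2 was at 394 ± 109 CPM in Y541S. Il33 was at 523 ± 190 CPM in Y541S and was not called (0.96, adjusted p = 0.338). Klk7 (5.18), Scgb3a1 (6.50), Nrxn3 (5.09) and 1810010D01Rik (5.14) were higher in D542G.

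Promoter letters were searched on both strands of RefSeq windows from 250 bases before to 50 after the first listed start of each gene, which were found for 12672 tested genes. The estrogen response element, GGTCA and TGACC with any 3 bases between, stood in 3 of them (0.0237%), against 0.0666% of all 27025 promoters, in 1 of 2117 promoters of genes called higher and in 0 of 1890 of genes called lower. The hexamer AGGTCA, which is part of some such elements, stood in 233 of the 2117 promoters of genes called higher, in 13.5% of those called lower, in 12.8% of all tested and in 16.0% of all in the table. The AP-1 letters TGANTCA stood in 5.67%, 5.66%, 5.83% and 7.93% of these, and the forkhead letters TGTTTAC in 3.12%, 2.38%, 2.52% and 3.55%. Of the cathepsin stretches printed above, that of Ctsj held AGGTCA once and the others did not. These are matches of letters in short windows and say nothing of binding elsewhere.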

How the data were processed

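The authors deposited, per library, whole-number counts per gene for 52636 genes named by Ensembl identifier, with RPKM values derived from them and a width per gene classed as another number; the counts alone were used. Per the submitters' processing notes the build was GRCm38, and neither an aligner, a counter nor the use of strand is recorded in what was used here. Gene width as deposited equalled the genomic span for 85.6% of genes in GENCODE M21, and 1141 of 1319 coding genes lying wholly inside others (86.5%) had 0 counts in all libraries, against 19.7% of those with no overlap, so a 0 for such genes is not absence. Libraries were RNA from sorted mature luminal cells prepared with Nextera XT, per the labels' protocols. Symbols were matched for 52489 genes.

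Groups came from the titles. The test was edgeR 4.0.16 (R 4.3.3), quasi-likelihood with robust fitting, on all 37 libraries (25.69 to 52.24 M counts), a coefficient per group, filterByExpr and TMM factors (0.77 to 1.17); calls had a Benjamini-Hochberg adjusted p under 0.05 over 18426 genes. SE was taken as the size of the log2 change divided by the root of F. CPM are counts over the tested total times the TMM factor, as mean ± SD, n = 3. Folds against a group with 0 counts used a floor of 3 counts over the group; these and the 95% exact counting intervals of ratios cover counting error only. On simulated data for D542G against WT under E2, 44% of genes changed 2-fold and 77% of those changed 4-fold were called (100 genes each, 17995 genes, 2 false calls). For the interaction the shares were 19% and 68% (17963 genes, 2 false calls). The simulation changed far fewer genes than the 29.1% called here. It gave all groups the same spread per gene, whereas WT libraries with E2 differed more than those of D542G. Its recovery and false calls therefore do not carry over to these data.

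The comparison, the 36 gene lists (569 genes) and the genes named were chosen with earlier results of these data known, so lists are described by counts and medians and given no test. Named were the 10 largest rises and falls whose groups did not overlap and whose mean level reached 2 in log2 CPM, a panel of 19 genes, up to 3 called members with the smallest p per list, the most abundant marker of each other cell type and the 5 largest terms each way in the interaction and against Y541S; further list members are given as examples chosen after their values were seen. Alternatives were RLE factors, other filters, DESeq2 1.42.0, a fit on the groups compared, a replicate block and leaving out each library.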

Additional observations from a re-analysis of the deposited data

Results flagged for a closer look

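The results here were singled out because the mutation's effect differed between E2 and placebo by edgeR's interaction term, at an adjusted p under 0.05 over all genes tested. Values are that difference on the log2 scale. The term was called for 1701 genes. It was positive for Upk3a (7.49), Adra2a (6.05), Klk7 (6.0), Trex2 (5.45), Abcc8 (5.0), Pparg (4.85), Nrxn3 (4.57), 1810010D01Rik (4.37), Cited1 (4.32), Il33 (4.29), Esr1 (3.86), Klk8 (3.11), Foxa1 (2.78), Prlr (2.61) and Pgr (2.25). It was negative for Btbd11 (-5.34), Dclk1 (-4.94), Plb1 (-4.88), Ltbp2 (-4.65), Itgb8 (-4.59), Clic6 (-4.51), Snorc (-4.48), Paqr6 (-4.38), Spns3 (-4.35), Nfatc2 (-4.29), Slc5a7 (-4.23), Wtip (-3.23), Fkbp5 (-2.67) and Elf5 (-2.19). For Elf5 neither single effect was called (-1.10 under E2 and 1.08 under placebo), though the effect under E2 was called by DESeq2 (adjusted p = 0.0367) and without D542G library 3 (0.0443). Esr1 and Cited1 had called effects of opposite sign in the 2 conditions, 1.85 and 2.05 under E2 and -2.01 and -2.28 under placebo.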

How the results depend on the processing

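For D542G against WT under E2, 5368 genes were called, 2561 when only the groups compared were fitted, 5444 with the replicate block and 4405 to 5175 without a library in turn. For placebo, 372 genes were called, 667 by DESeq2 and 168 to 261 without a library in turn. Leaving out a library gave 1159 to 1873 calls for the interaction (1701) and 1807 to 2309 against Y541S (2878). DESeq2 shared 5334 of the 5368 calls and the fit on 6 libraries 2504; the causes of these shifts were not tested. Replicate numbers showed no clear pairing of the samples. The r of deviations was 0.091, 0.023 and -0.054 between equal numbers, and -0.124 to 0.072 between unequal ones. With 3 libraries a group this cannot exclude shared handling by number. The block kept 96.3% of the calls and added those of Elf5 (adjusted p = 0.0268) and Trex2 (0.0431). Of 109 called named genes, 95 were called in each of the 12 alternatives that tested them. Calls of Anln, Ccnd3, Cyp1b1, Hsd17b7, Irf7, Krt8, Lfng, Pcna, Slbp and Wnt5a were lost in the fit on 6 libraries alone. In that fit the rises went from 15 to 10 for glucose use and from 13 to 8 for protein folding. They went from 14 to 11 for hormone-sensing markers and from 7 to 4 for cofactors. The falls of progenitor markers went from 16 to 14. No called gene named changed sign. Under at least 1 alternative, uncalled values of Calca, Csn2, Fabp4, Greb1, Krt15, Lyz2, Mki67, Pparg and Wnt4 did, as did the medians of the adipocyte, endothelial, cofactor, keratin and mucin, leukocyte, nuclear receptor and paracrine lists.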
